A study of Mus musculus with 12 samples.

Results

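Cell cycle genes were examined as a set of 44 members, found by matching the gene column of each deposited table to their symbols, out of 23983 entries per table. The set holds 6 regulators of G1 and of the entry into S phase, 13 genes of S phase and 25 genes of mitosis, and all 44 were present in both tables. The samples were whole brain tissue from newborn mice of mixed strain at postnatal day 0, in 4 groups of 3 libraries: cortex from Reck vascular knockout mice (vKO), subcortex from vKO mice, cortex from wild-type (WT) mice and subcortex from WT mice. The vKO genotype is written in the labels as Reck flex2/Δex1; Tie2Cre, and for the WT mice nothing beyond wild type is given. Tie2Cre is a Cre line driven in endothelial cells and in blood lineages, so the deletion need not be limited to vessels. The study asked how the RNA of each tissue differs between vKO and WT.

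Dividing cells make the proteins of each phase in waves. D-type and E-type cyclins and E2F factors govern the passage from G1 into S phase, the MCM helicase, the PCNA clamp and the enzymes of nucleotide supply serve DNA replication, and cyclin B with Cdk1, the Aurora and Polo kinases, the kinetochore, the spindle motors and the anaphase-promoting complex carry out mitosis. In the newborn cortex dividing cells are mainly radial glia, intermediate progenitors and glial precursors, beside endothelial, microglial and blood cells, while neurons have left the cycle. RNA of many mitotic genes is known to be held low in G1 through CHR elements in their promoters, and that of many S-phase genes through E2F sites. Promoters of mitotic genes often also hold CCAAT boxes.

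Each deposited value is 1 FPKM (fragments per kilobase of transcript, scaled to the mapped fragments of the library) per gene and group, the authors' value over all libraries of the group. No library has a value of its own here, so no SD is given, the depth is unknown, and overlap between groups cannot be described. A gene was called where the q-value of the authors' deposited table was under 0.05, and "rose" is written only of called genes. The labels do not say whether the libraries of a group came from separate animals, so those q-values may rest on technical spread. Changes are given as log2((vKO FPKM + 1)/(WT FPKM + 1)), termed the log2 ratio. FPKM is scaled by transcript length, so that levels of different genes can be set side by side.

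The promoters below are shown because each holds at least 1 of the elements searched. Each line is the 250 bases before the annotated start, 5′ to 3′ on the gene's strand, from RefSeq on GRCm38.p6, the build also named mm10. The windows lie at chr10:69352913-69353162 (minus strand) for Cdk1, chr9:70421555-70421804 (minus strand) for Ccnb2, chr2:132253181-132253430 (minus strand) for Pcna, chr5:138171884-138172133 (minus strand) for Mcm7 and chr17:47593217-47593466 (plus strand) for Ccnd3. Capitals mark matches on either strand to E2F (TTCGCGC or TTGGCGC or TTCCCGC or TTGCCGC), CHR (TTTGAA or TTCGAA) and CCAAT box (CCAAT) letters.
Cdk1: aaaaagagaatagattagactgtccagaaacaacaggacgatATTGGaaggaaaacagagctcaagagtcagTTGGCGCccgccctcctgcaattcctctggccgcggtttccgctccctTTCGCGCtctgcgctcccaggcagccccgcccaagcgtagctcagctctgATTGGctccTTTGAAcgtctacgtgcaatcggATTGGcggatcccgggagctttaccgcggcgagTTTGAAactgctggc
Ccnb2: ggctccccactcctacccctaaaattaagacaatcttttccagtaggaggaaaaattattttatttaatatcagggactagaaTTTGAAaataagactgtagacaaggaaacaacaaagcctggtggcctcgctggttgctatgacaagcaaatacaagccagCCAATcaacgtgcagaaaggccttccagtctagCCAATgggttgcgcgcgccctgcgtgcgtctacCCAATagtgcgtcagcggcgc
Pcna: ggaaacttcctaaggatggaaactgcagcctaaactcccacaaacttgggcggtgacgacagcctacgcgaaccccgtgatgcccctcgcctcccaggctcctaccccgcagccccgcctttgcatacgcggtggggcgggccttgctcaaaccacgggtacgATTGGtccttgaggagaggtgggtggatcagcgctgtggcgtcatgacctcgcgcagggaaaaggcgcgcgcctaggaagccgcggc
Mcm7: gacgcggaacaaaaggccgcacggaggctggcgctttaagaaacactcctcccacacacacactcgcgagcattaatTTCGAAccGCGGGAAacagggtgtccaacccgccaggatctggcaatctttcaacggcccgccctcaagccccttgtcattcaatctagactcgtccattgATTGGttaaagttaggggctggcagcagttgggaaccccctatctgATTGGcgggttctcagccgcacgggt
Ccnd3: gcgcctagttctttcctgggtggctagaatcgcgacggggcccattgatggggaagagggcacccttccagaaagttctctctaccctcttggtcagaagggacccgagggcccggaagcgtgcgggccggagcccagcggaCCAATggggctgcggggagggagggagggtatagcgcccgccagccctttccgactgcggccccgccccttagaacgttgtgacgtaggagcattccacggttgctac
In Cdk1 CCAAT boxes begin 208, 80 and 48 bases before the start. Its CHR letters begin at 71 and 15 bases, and its E2F letters at 178 and 130 bases. Ccnb2 has 3 CCAAT boxes, beginning 87, 54 and 21 bases before the start, and a CHR at 167. Mcm7 has CHR and E2F letters close to each other, at 173 and 165 bases, and CCAAT boxes at 72 and 26 bases. Pcna has a CCAAT box at 87 bases. Entries of the RefSeq promoter table were matched for 35 of the 44 members, giving 37 windows since some genes have more than 1 start. CCAAT letters were in 17 of 21 mitotic promoters (81.0%), 8 of 11 S-phase promoters (72.7%) and 1 of 3 G1 promoters, against 37.5% of 27025 genes in the promoter table. CHR letters were in 8 of 21 mitotic promoters (38.1%), 2 of 11 S-phase promoters (18.2%) and 0 of 3 G1 promoters, against 19.6% of all genes. E2F letters were in 3 of 21 mitotic promoters (14.3%), 6 of 11 S-phase promoters (54.5%) and 0 of 3 G1 promoters, against 9.01% of all genes. Of the 37 member windows, 1 had matches of different motifs that share letters. Among mitotic genes with a promoter, CHR letters were in 6 of 14 called in cortex and in 2 of 7 not called. A match is a run of letters, and no protein binding was measured.

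In cortex 18 of 43 tested members rose in vKO and 0 fell, by the q-values of the authors' deposited table. Over all 13594 tested entries 8.15% were called higher and 11.3% lower. The log2 ratio was above 0 for 42 of the 43 members and for 6847 of all 13594 tested entries. Its median was 0.36 over the members, against 0.00 over all tested entries. Mitotic genes made up 15 of the 18, S-phase genes 2 and G1 regulators 1. The classes had medians of 0.47 for mitotic genes, 0.33 for S-phase genes and 0.22 for G1 regulators, and the differences between classes were not tested. The summed level of the 25 mitotic genes was 213 FPKM in vKO and 145 FPKM in WT cortex. In whole tissue a larger share of dividing cells and more of these RNAs per dividing cell cannot be told apart. At an unadjusted p under 0.05, 26 members were higher and 1 was lower in the authors' deposited table, against 15.1% of all tested entries higher and 17.1% lower. Stricter rules kept 9 members at a q under 0.01, where 4.01% of all tested entries were called higher, and 11 members with an FPKM ratio of at least 1.5, where 4.35% were, both from the q-values of the authors' deposited table.

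**Figure D1:**
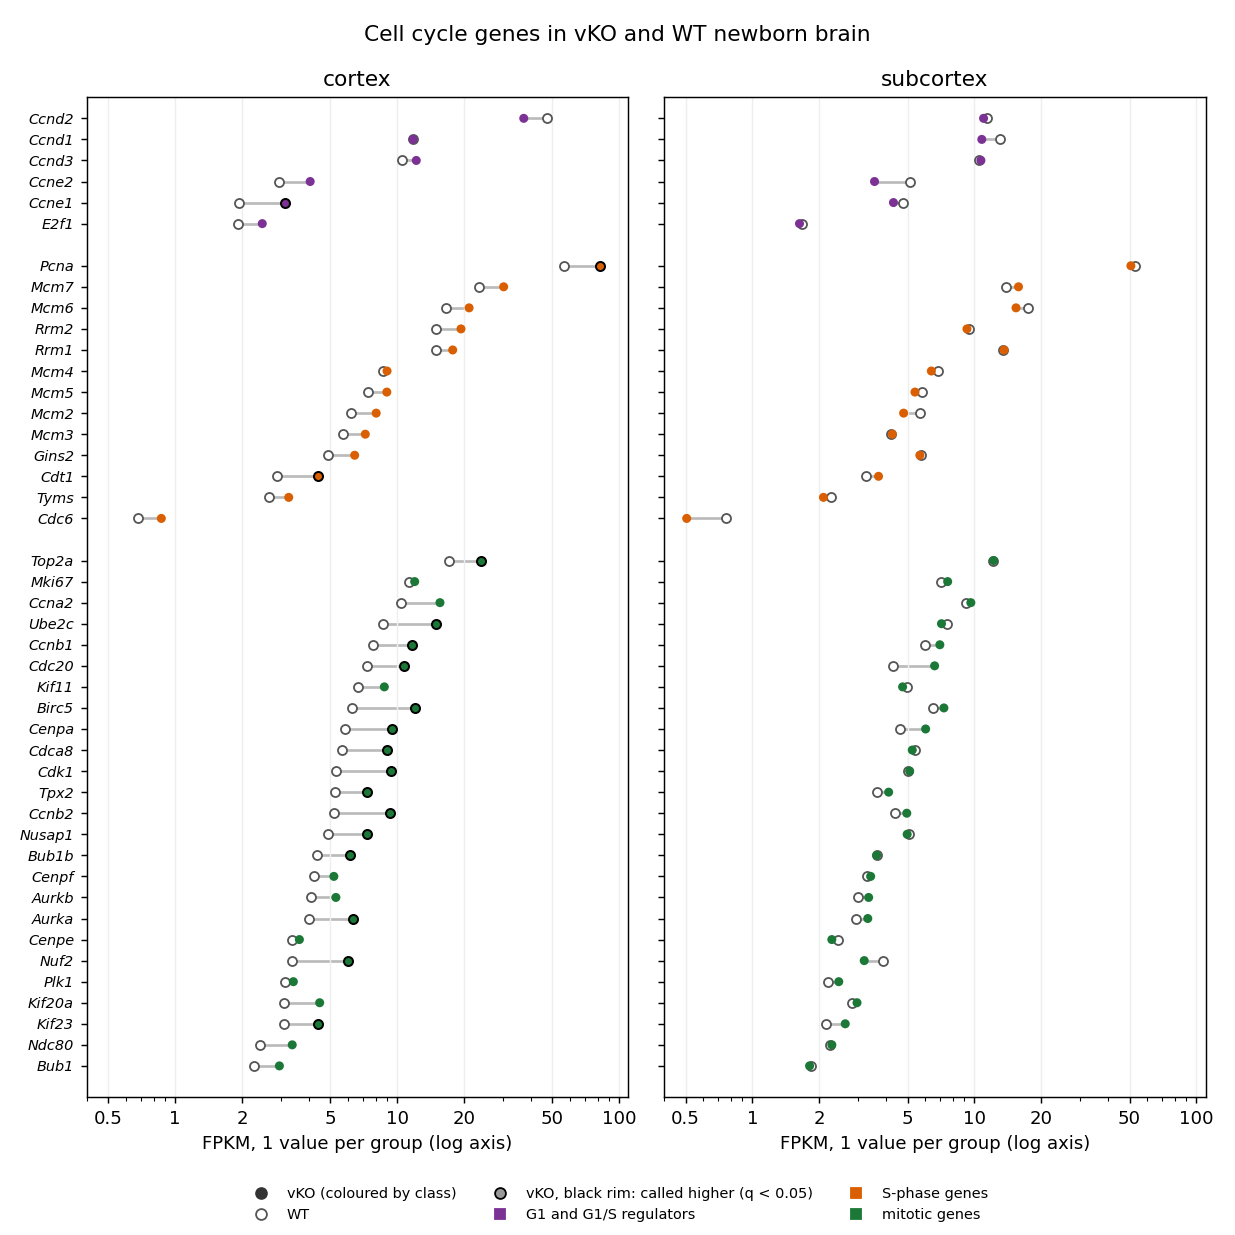
FPKM of all 44 members on a log axis, 1 value per group, in cortex and subcortex. Filled points are vKO, open points are WT, and black rims mark the 18 members called higher; the vKO points lie right of the WT points for nearly all members in cortex and close to them in subcortex.

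Of the 6 regulators of G1, 1 rose. Ccne1, a cyclin that activates Cdk2 at the entry into S phase, was that member, with 3.14 FPKM in vKO and 1.95 FPKM in WT cortex (log2 ratio 0.49, q = 0.0394 in the authors' deposited table). Its relative Ccne2 had 4.06 FPKM in vKO and 2.94 FPKM in WT cortex, with a q of 0.506 in the authors' deposited table. E2f1, a transcription factor restrained by the retinoblastoma protein, had 2.47 FPKM in vKO and 1.93 FPKM in WT cortex (0.25, not called). The D-type cyclins, partners of Cdk4 and Cdk6, gave 3 different values. Ccnd2, the highest of them in cortex, had 37.2 FPKM in vKO and 47.2 FPKM in WT (-0.34), the one member with a log2 ratio below 0 and an unadjusted p of 0.0229, but its q of 0.0917 in the authors' deposited table did not pass. Ccnd1 had 11.8 FPKM in vKO and 11.8 FPKM in WT cortex (0.00). Ccnd3 had 12.2 FPKM in vKO and 10.5 FPKM in WT cortex (0.20, not called).

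Among the S-phase genes, Pcna and Cdt1 rose. Pcna, the sliding clamp of the replicative polymerases and the most abundant member, had 82.1 FPKM in vKO and 56.5 FPKM in WT cortex (0.53, q = 0.00353 in the authors' deposited table). Cdt1, which loads the MCM helicase onto origins, had 4.42 FPKM in vKO and 2.88 FPKM in WT cortex (0.48, q = 0.0314 in the authors' deposited table). Cdc6, its partner in that step, was marked as not tested by the authors, at 0.867 FPKM in vKO and 0.684 FPKM in WT cortex.

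The subunits of the MCM helicase differed in level more than in their change. Mcm7 was the highest, at 30.2 FPKM in vKO and 23.4 FPKM in WT cortex (0.35), followed by Mcm6 at 21.1 FPKM in vKO and 16.6 FPKM in WT (0.33). Mcm2, Mcm3, Mcm4 and Mcm5 lay between 7.19 and 9.01 FPKM in vKO and between 5.70 and 8.66 FPKM in WT cortex. None of these 6 was called; their q-values in the authors' deposited table ran between 0.0690 for Mcm7 and 0.854 for Mcm4, whose log2 ratio was 0.05. Ribonucleotide reductase makes the building blocks of DNA: its small subunit gene Rrm2 had 19.4 FPKM in vKO and 14.9 FPKM in WT cortex (0.36, q = 0.0759 in the authors' deposited table), and the large subunit gene Rrm1 had 17.8 FPKM in vKO and 14.9 FPKM in WT (0.24). Tyms, which makes thymidylate, had 3.25 FPKM in vKO and 2.65 FPKM in WT cortex (0.22). Gins2, of the GINS complex of the active helicase, had 6.44 FPKM in vKO and 4.87 FPKM in WT cortex (0.34, q = 0.762 in the authors' deposited table). At an unadjusted p under 0.05, 6 of the 12 tested S-phase genes were higher in the authors' deposited table, against 15.1% of all tested entries.

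The kinase that starts mitosis and its B-type cyclins rose. Cdk1 (chromosome 10, 69335146 to 69352938 in GENCODE M21, 8 exons in its longest coding transcript) had 9.35 FPKM in vKO and 5.32 FPKM in WT cortex (0.71, q = 0.000806 in the authors' deposited table). Ccnb2 had 9.27 FPKM in vKO and 5.21 FPKM in WT cortex (0.73, q = 0.00144 in the authors' deposited table), and Ccnb1 had 11.7 FPKM in vKO and 7.80 FPKM in WT (0.53, q = 0.00941 in the same table). Both B-type cyclins bind Cdk1. Ccna2, the cyclin of S phase and G2, had 15.6 FPKM in vKO and 10.4 FPKM in WT cortex (0.55), a larger log2 ratio than that of Ccnb1, and a q of 0.0543 in the authors' deposited table. Plk1, the Polo kinase, had 3.41 FPKM in vKO and 3.13 FPKM in WT cortex (0.09, q = 0.757 in the authors' deposited table). The spindle pole kinase Aurka had 6.35 FPKM in vKO and 4.03 FPKM in WT cortex (0.55), and its activator Tpx2 had 7.35 FPKM in vKO and 5.27 FPKM in WT (0.41), both called.

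Members of the chromosomal passenger complex, which corrects faulty attachments and guides cell division, had unequal log2 ratios. Birc5, survivin, had the largest of all members, with 12.1 FPKM in vKO and 6.27 FPKM in WT cortex (0.85, q = 0.00144 in the authors' deposited table). Cdca8, borealin, had 8.98 FPKM in vKO and 5.66 FPKM in WT cortex (0.58, called). Aurkb, the kinase of the complex, had 5.30 FPKM in vKO and 4.10 FPKM in WT cortex (0.31), and its q of 0.209 in the authors' deposited table did not pass.

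At centromeres and kinetochores, 3 of 7 members rose. Nuf2, of the Ndc80 complex that grips microtubules, had 6.03 FPKM in vKO and 3.35 FPKM in WT cortex (0.69, q = 0.000806 in the authors' deposited table), while Ndc80 itself had 3.37 FPKM in vKO and 2.41 FPKM in WT (0.36, q = 0.122 in the same table). Their other partners, Spc24 and Spc25, are not members and were picked after their values were seen. Spc24 had 5.97 FPKM in vKO and 2.87 FPKM in WT cortex (0.85), and Spc25 had 8.95 FPKM in vKO and 5.56 FPKM in WT (0.60), both called. Cenpa, the histone H3 variant of centromeres, had 9.49 FPKM in vKO and 5.82 FPKM in WT cortex (0.62, called). Bub1b, of the spindle checkpoint, had 6.12 FPKM in vKO and 4.34 FPKM in WT cortex (0.42, called), and the checkpoint kinase Bub1 had 2.95 FPKM in vKO and 2.26 FPKM in WT (0.28, not called). The kinetochore motor Cenpe had 3.63 FPKM in vKO and 3.35 FPKM in WT cortex (0.09), and Cenpf had 5.19 FPKM in vKO and 4.21 FPKM in WT (0.25), neither called.

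Among spindle motors and their partners, Kif23, a kinesin of the midzone, had 4.42 FPKM in vKO and 3.09 FPKM in WT cortex (0.41, called), and Nusap1, a spindle-binding protein, had 7.32 FPKM in vKO and 4.86 FPKM in WT (0.51, called). Kif11, which pushes spindle poles apart, had 8.76 FPKM in vKO and 6.70 FPKM in WT cortex (0.34), and Kif20a, a kinesin of cell division, had 4.48 FPKM in vKO and 3.10 FPKM in WT (0.42). Neither passed, with q-values in the authors' deposited table of 0.0644 for Kif11 and 0.601 for Kif20a. The anaphase-promoting complex, which marks cyclin B for destruction, was represented by its activator and its ubiquitin carrier. The carrier gene Ube2c had 14.9 FPKM in vKO and 8.67 FPKM in WT cortex (0.72, q = 0.00202 in the authors' deposited table). The activator gene Cdc20 had 10.7 FPKM in vKO and 7.32 FPKM in WT cortex (0.49, q = 0.0441 in the same table). Top2a, which untangles sister DNA, was the most abundant mitotic gene, at 23.9 FPKM in vKO and 17.1 FPKM in WT cortex (0.47, called). Mki67, which coats mitotic chromosomes and is the usual marker of dividing cells, had 12.0 FPKM in vKO and 11.3 FPKM in WT cortex (0.08, q = 0.746 in the authors' deposited table).

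**Figure D2:**
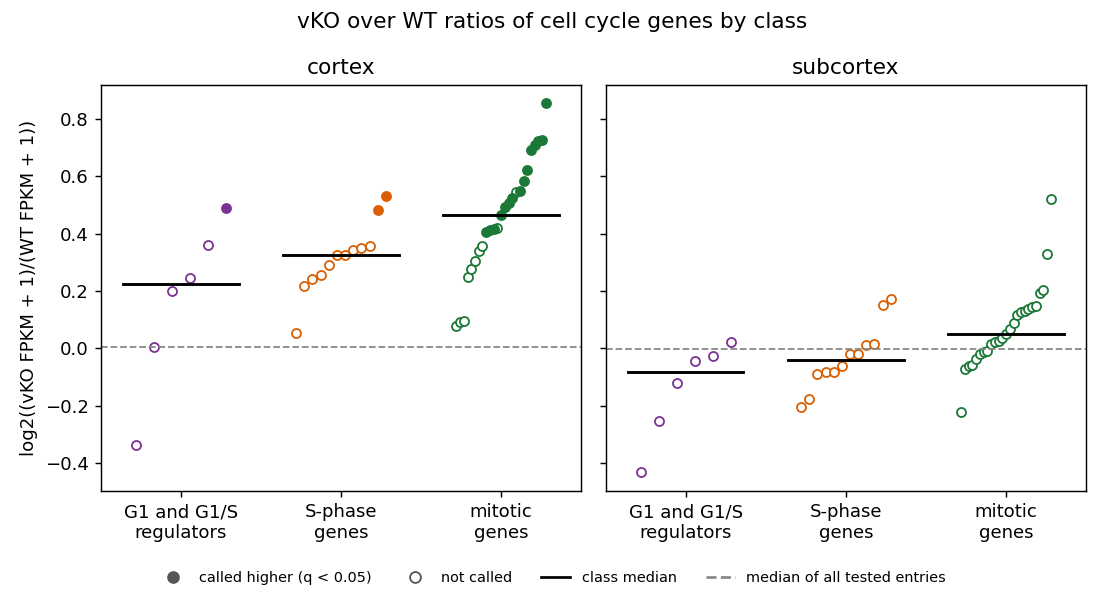
Log2 ratios of the 43 tested members by class in cortex and subcortex, 1 point per gene in order of ratio. Filled points were called higher by the authors' deposited table; black bars are class medians, at 0.22, 0.33 and 0.47 in cortex and at -0.08, -0.04 and 0.05 in subcortex, and the dashed line is the median of all tested entries.

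Transcript length moved with the cortex ratios, over all genes and within the set. Spearman's correlation of the log2 ratio with the length of the longest coding transcript was -0.55 in cortex over 13466 tested entries with a length, and 0.02 in subcortex over 13615. Across the 43 tested members it was -0.48 in cortex and -0.22 in subcortex. These points are genes of the same pooled libraries and are not independent replicates. Members not called had a median transcript length of 3381 bases, and those called 2298 bases. Mki67 (10061 bases), Cenpf (11130 bases) and Cenpe (7910 bases) are the longest members and have log2 ratios of 0.25 or less. With the median ratio of entries of like length subtracted, their log2 ratios were 0.45 for Mki67, 0.78 for Cenpf and 0.37 for Cenpe.

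The set kept its cortex median once length was taken into account. After that subtraction the medians were 0.36 for all members, 0.44 for mitotic genes, 0.31 for S-phase genes and 0.14 for G1 regulators, and 41 of 43 members lay above 0, all 18 called members among them. The 2 members below 0 were Ccnd2 (-0.09) and Plk1 (-0.03). Of members with transcripts under 2000 bases 6 of 7 were called higher, against 20.7% of all tested entries of that length. From 2000 to under 4000 bases 9 of 27 were called higher, against 6.1%, and from 4000 bases on 3 of 9, against 1.46%. With a minimum of 1.5-fold after the subtraction, 4 called members were left, Top2a, Cdk1, Birc5 and Ube2c, against 1.68% of all tested entries. With the shortest RefSeq-paired transcript as the length, an alternative chosen after seeing the data, 3 were left, Top2a, Cdk1 and Nuf2, again against 1.68%.

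**Figure D3:**
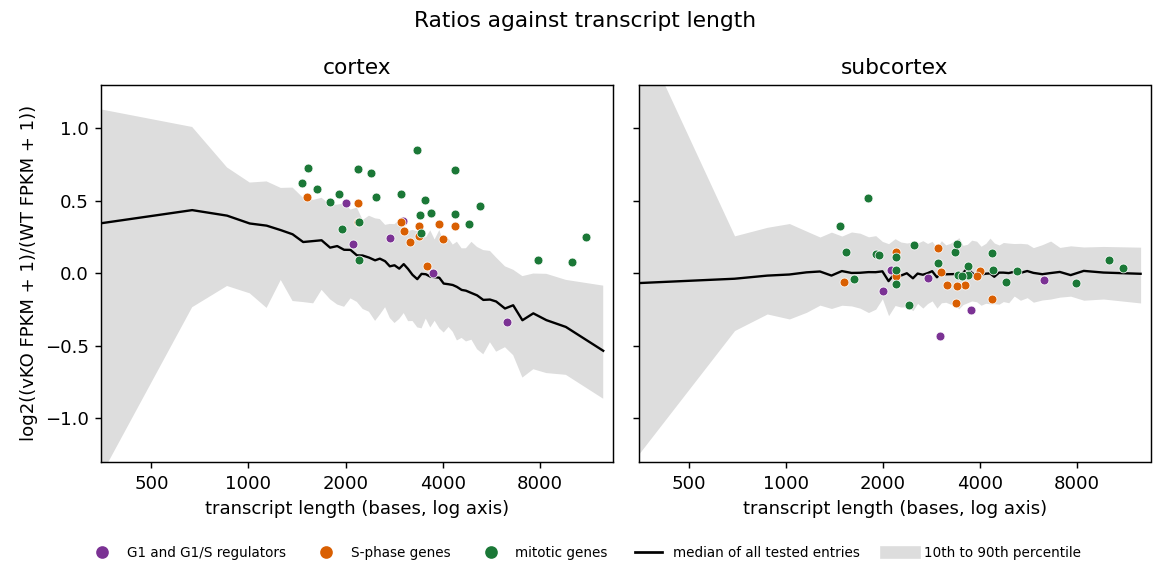
Log2 ratios against transcript length (log axis) in cortex and subcortex. The black line is the median of all tested entries in 50 bins of length and the grey band their 10th to 90th percentile; in cortex the line falls with length and 41 of 43 members, coloured by class, lie above the median of their length bin.

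In subcortex 0 of 43 tested members were called in either direction by Cuffdiff's q-values in the authors' deposited table. Over all 13735 tested entries 0.714% were called there, 0.451% higher and 0.262% lower. At an unadjusted p under 0.05, 1 member was higher and 0 were lower in the authors' deposited table, against 3.49% and 2.82% of all tested entries. That member was Cdc20, with 6.62 FPKM in vKO and 4.31 FPKM in WT subcortex (0.52, q = 0.591 in the authors' deposited table). The log2 ratio was above 0 for 22 of 43 members, with a median of 0.01, and for 6836 of all 13735 tested entries. The summed level of the mitotic genes was 124 FPKM in vKO and 116 FPKM in WT. Cdk1 had 5.11 FPKM in vKO and 5.0 FPKM in WT subcortex (0.03), Ccnb2 4.96 FPKM in vKO and 4.38 FPKM in WT (0.15), and Birc5 7.29 FPKM in vKO and 6.50 FPKM in WT (0.14). Nuf2, among the genes called in cortex, had 3.19 FPKM in vKO and 3.88 FPKM in WT subcortex (-0.22). Pcna had 50.7 FPKM in vKO and 52.9 FPKM in WT subcortex (-0.06). Ccne2 had the lowest log2 ratio, with 3.55 FPKM in vKO and 5.14 FPKM in WT subcortex (-0.43, q = 0.999 in the authors' deposited table).

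The log2 ratio was larger in cortex than in subcortex for 39 of 43 members. The exceptions were Ccnd2, Mki67, Plk1 and Cdc20. The difference between tissues was not tested, since no value per library was used. Across the 43 members Spearman's correlation of the cortex with the subcortex log2 ratios was 0.31, over genes measured in libraries that may come from the same brains.

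Levels in cortex and subcortex come from tables that may have been normalized separately, so they are set side by side without a test. In vKO brains the log2 of cortex over subcortex, each FPKM plus 1, had a median of 0.62 for mitotic genes, 0.55 for S-phase genes and 0.17 for G1 regulators, and in WT brains of 0.28, 0.15 and -0.07. Over the 13167 entries tested in both tables the median was -0.02 in vKO and -0.05 in WT brains. All 25 mitotic genes were higher in cortex than in subcortex in vKO brains, and 22 of 25 were in WT brains. Among those 13167 entries, 6197 were higher in cortex in vKO brains and 6010 in WT brains. Of the 6 G1 regulators, 5 were higher in cortex in vKO brains and 2 in WT brains. Ccnd2 was 3.38 times as high in FPKM in cortex as in subcortex in vKO and 4.15 times in WT brains. Ccnd1 was at 1.09 in vKO and 0.9 in WT brains, and Ccnd3 at 1.14 in vKO and 0.999 in WT brains. Ccne1 was lower in cortex, at 0.725 of its subcortex FPKM in vKO and 0.408 in WT brains, and Ccne2 was at 1.14 in vKO and 0.573 in WT brains.

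**Figure D4:**
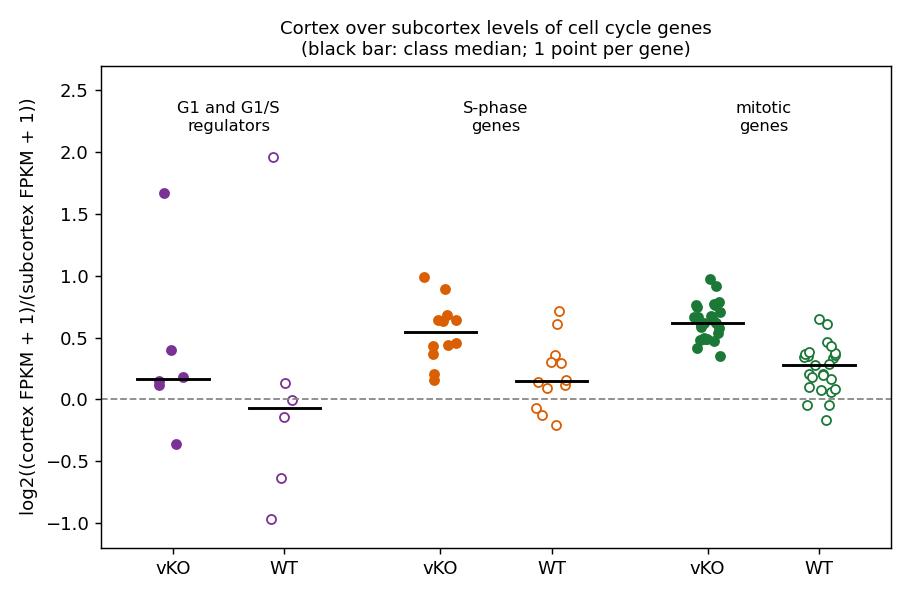
Log2 of cortex over subcortex FPKM, each plus 1, for the 43 tested members by class, in vKO (filled) and WT (open) brains. Black bars are class medians; mitotic genes have a median of 0.62 in vKO and 0.28 in WT brains, and the highest point in both G1 columns is Ccnd2.

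Other cell cycle genes, listed with earlier results of these data known, were also called higher in vKO cortex. The authors' deposited table called 16 of 32 further mitotic genes higher and 0 lower, against 8.15% higher and 11.3% lower over all tested entries. Their median log2 ratio was 0.39, and 0.40 with the length trend removed. The cyclin-dependent kinase subunit gene Cks2 had 18.5 FPKM in vKO and 8.46 FPKM in WT cortex (1.05), Hmmr, a spindle assembly factor, had 3.85 FPKM in vKO and 2.0 FPKM in WT (0.69), and the condensin gene Smc4 had 19.0 FPKM in vKO and 11.7 FPKM in WT (0.65). The same table called 7 of 24 tested further S-phase genes higher and 0 lower, against the same shares. Their median was 0.32, and 0.25 with the length trend removed. They included Chaf1b, of the histone chaperone that follows the replication fork, with 7.62 FPKM in vKO and 4.61 FPKM in WT cortex (0.62). They also included the fork protein gene Clspn, with 2.14 FPKM in vKO and 1.28 FPKM in WT cortex (0.46), and the origin-firing factor gene Mcm10, with 1.97 FPKM in vKO and 1.12 FPKM in WT (0.49).

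Some inhibitors of the cycle were also called higher. Among 11 tested genes of cyclin-dependent kinase inhibition and cell cycle exit, the authors' deposited table called 3 higher and 0 lower in vKO cortex, beside 8.15% higher over all tested entries. The median log2 ratio was 0.35, and 0.26 with the length trend removed. Cdkn1a, Rb1 and Rbl2 had log2 ratios of -0.13, -0.14 and -0.28, none of them called. Btg2, an antiproliferative gene of progenitors about to form neurons, had 8.21 FPKM in vKO and 4.56 FPKM in WT cortex (0.73). Cdkn1b, the inhibitor p27, had 48.6 FPKM in vKO and 35.1 FPKM in WT cortex (0.46), and Cdkn2d, the inhibitor p19, had 26.0 FPKM in vKO and 19.1 FPKM in WT (0.42, or 0.15 with the length trend removed). Among 15 tested cyclin-dependent kinase and E2F genes the same table called 2 higher and 0 lower, against the same 8.15%, and the median was 0.08. These were Cks1b, with 29.4 FPKM in vKO and 17.0 FPKM in WT cortex (0.76), and Cdk4, with 155 FPKM in vKO and 117 FPKM in WT (0.40). In subcortex the authors' deposited table called 0 of the tested genes of these 4 lists, whose medians lay between -0.06 and 0.08.

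Markers of several cell types moved with genotype in cortex, and their part in the cell cycle values was not tested. Radial glia markers had 3 of 8 called higher and 0 lower in the authors' deposited table, with a summed level of 1283 FPKM in vKO and 966 FPKM in WT cortex. Most of that sum is Fabp7, with 965 FPKM in vKO and 723 FPKM in WT cortex. Its log2 ratio of 0.42 was 0.02 with the length trend removed. Vim (0.77, or 0.65 with the length trend removed) and Hes1 (0.61, or 0.39) were the other called markers. Hes5 and Slc1a3 had log2 ratios of -0.08 and -0.11, not called. Intermediate progenitor markers, Btg2 among them, had 4 of 5 tested called higher, with 49.8 FPKM in vKO and 33.4 FPKM in WT. Microglial markers had 5 of 7 called higher, with 92.4 FPKM in vKO and 38.1 FPKM in WT. Erythroid markers, in which globin genes have both single and joint entries that may share reads, had 2 of 6 tested entries called higher and 1 lower, with 5486 FPKM in vKO and 332 FPKM in WT. Endothelial markers had 3 of 8 called lower and 0 higher, with 56.7 FPKM in vKO and 84.5 FPKM in WT. The called markers were Cldn5, with 24.6 FPKM in vKO and 46.8 FPKM in WT cortex (-0.90), Kdr (-0.93) and Flt1 (-0.58). The endothelial markers not called in cortex, listed in full, were Pecam1 (0.34), Tie1 (0.07), Erg (-0.01), Cdh5 (-0.02) and Tek (-0.19). In subcortex 2 of 8 endothelial markers were called higher and 0 lower in the authors' deposited table, Pecam1 with 10.1 FPKM in vKO and 5.12 FPKM in WT, and Cdh5 with 6.45 FPKM in vKO and 3.62 FPKM in WT. Neuronal markers had 1 of 6 called lower, with 2224 FPKM in vKO and 2071 FPKM in WT, and oligodendrocyte precursor markers 1 of 5, with 53.4 FPKM in vKO and 52.4 FPKM in WT. With the length trend removed, the median log2 ratios in cortex were 0.16 for radial glia, 0.42 for intermediate progenitor, 0.73 for microglial, 3.36 for erythroid, -0.04 for endothelial, 0.03 for neuronal and -0.05 for oligodendrocyte precursor markers. Over all tested entries 8.15% were called higher and 11.3% lower. No marker of these lists was listed at 0 in either cortex group.

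The tissue labels matched their markers: Neurod6, of cortical neurons, had 168 FPKM in vKO and 98.3 FPKM in WT cortex, a called rise in the authors' deposited table, set beside 6.08 FPKM in vKO and 6.61 FPKM in WT subcortex. The thalamic gene Tcf7l2 was lower in vKO cortex, at 1.07 FPKM, than in WT cortex, at 4.71 FPKM, a called fall in the authors' deposited table, set beside 33.2 FPKM in vKO and 37.0 FPKM in WT subcortex. Reck had 3.23 FPKM in vKO and 2.91 FPKM in WT cortex, which does not check a deletion limited to some cells of the tissue. Xist, transcribed in female cells, had 18.6 FPKM in vKO and 0.0417 FPKM in WT cortex, and the Y-linked Eif2s3y had 15.8 FPKM in vKO and 30.4 FPKM in WT. The sex makeup of the groups and the genotype cannot be told apart here.

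**Figure D5:**
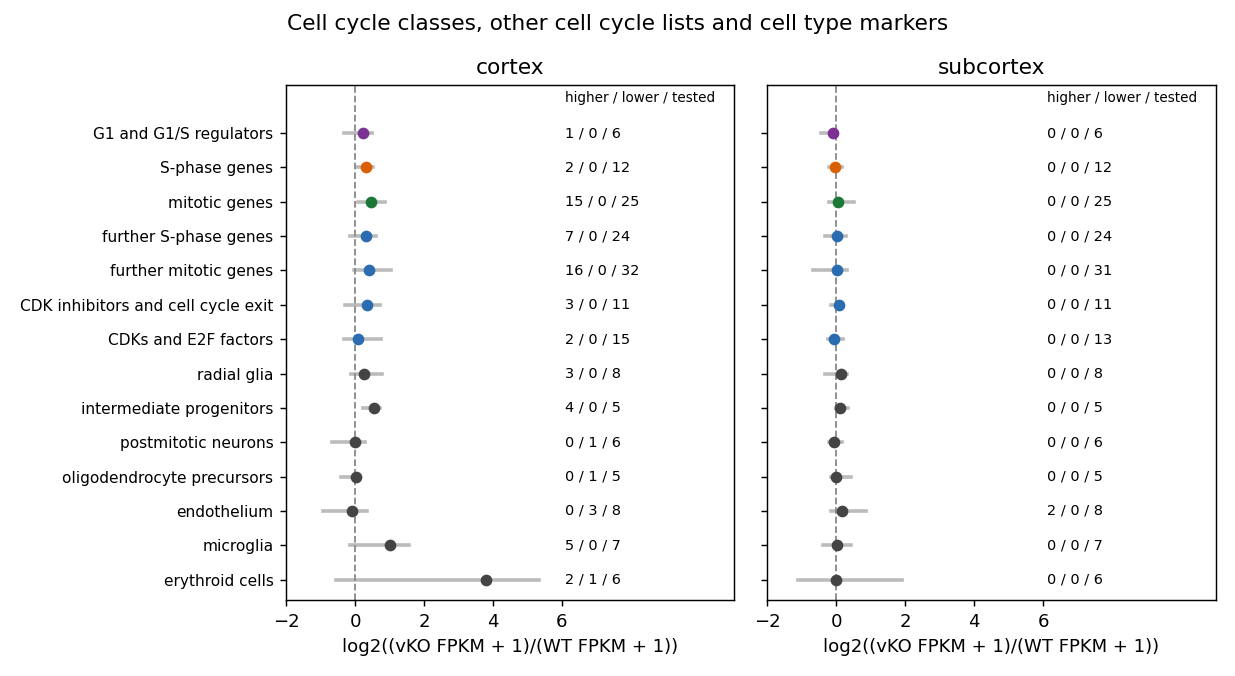
Median log2 ratio (points) and range (grey lines) of the 3 member classes, 4 other cell cycle lists and 7 marker lists in cortex and subcortex, with the numbers called higher, called lower and tested at the right. In cortex the medians of the cell cycle lists lie above 0 together with those of the progenitor, microglial and erythroid markers. Several of these ranges reach below 0. In subcortex the medians of the cell cycle lists are near 0.

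Some entries are uncertain because reads can be shared. Of the members 11 have a locus that the deposited tables share with another entry, and 3 of these 11 were called in cortex: Tpx2, Nusap1 and Cdc20. Ccna2 with Exosc9, Ccne2 with Ints8, Gins2 with Gse1 and Kif20a with Brd8 and Cdc23 are among those not called. Transcripts of other genes or pseudogenes match at least 90% over at least 50% of the member's own transcript for Ccnb1 (4 genes) and for Mcm4, Mcm7, Pcna, Gins2, Plk1 and Cdc20 (1 gene each).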

How the data were processed

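RNA of 12 libraries, 3 in each of 4 groups, was measured by sequencing of total RNA with a stranded kit, per the labels' protocols. The submitters' processing notes list Cuffdiff, Cufflinks 2.2.1, HISAT2 2.0.1 and the build mm10, without the order of steps. The annotation, and whether strand was used in counting, are not given in the sources used here. The 2 deposited tables, 1 per tissue, hold 1 FPKM per gene and group, made by the authors from all libraries of a group per the file headers. Column codes beginning with W were read as WT and those with M as vKO. The p-values and q-values are the authors' own, per the file headers, over 13594 tested entries in cortex and 13735 in subcortex, and the lowest p listed is 5e-05. The rest were marked as too low, too deep or lacking data.

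Log2 ratios with 1 added to each FPKM were computed from the deposited values with Python 3.11.15 and pandas 2.3.3. This understates the change of genes at low level. Transcript lengths came from GENCODE M21, and length was taken into account by subtracting the median ratio of tested entries in the same of 50 bins of length, a step tested on simulated data. Copies were sought with blastn 2.17.0. The members and lists were chosen with earlier results of these data known. All members are named; of each other list, up to 3 called genes with the lowest q are, and where none was called the gene of highest FPKM. Named outside this rule were Spc24, Spc25, Cdkn1a, Rb1, Rbl2, Hes5, Slc1a3, Isl1 and the endothelial markers Tie1, Erg and Tek. Reck, Xist and Eif2s3y belong to none of the lists. For each class, promoters of up to 2 members with the lowest cortex q that hold a motif are printed.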

Additional observations from a re-analysis of the deposited data

How the results depend on the processing

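Of the 18 members called higher in cortex by the authors' deposited table, 9 remained at a q under 0.01, 11 with an FPKM ratio of at least 1.5, and 4 with at least 1.5-fold after the trend with transcript length was removed. With the shortest RefSeq-paired transcript as the length, an alternative chosen after seeing the data, 3 remained: Top2a, Cdk1 and Nuf2. At an unadjusted p under 0.05, 1 member was lower in cortex and 1 higher in subcortex. The median of all members in cortex was 0.46 without a pseudocount, against 0.36. The other class medians moved by at most 0.1 under every planned pseudocount, level, centring, length and GC alternative. No paired analysis was possible because the columns carry no replicate, and for the same reason no replicate was left out. Depth, and so the precision of each value, is unknown from these tables.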
